A study of Mus musculus with 12 samples.

Results

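Astrocytes cultured from the brains of Rack7-cKO mice at postnatal day 8 (P8) were compared with astrocytes cultured from WT brains of the same day. The comparison took the libraries whose labels give P8, which were 2 labelled Rack7-cKO and 2 labelled WT, out of 12 RNA-seq libraries in the series. The other 8 libraries came from cultures of the same kind made at P1 and at P6, with 2 libraries for each label and day. The question was how loss of RACK7 alters transcription in astrocytes as they are generated after birth, and here it was asked for gene functions and families rather than for single genes.

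Per the labels and the study's methods, WT mice were hGFAP-cre::Rack7 +/+ and Rack7-cKO mice were hGFAP-cre::Rack7 fl/fl, so both groups carried the hGFAP-Cre transgene. The human GFAP promoter drives this Cre in radial glia before birth, and so the deletion is carried by neurons and other descendants of those cells as well as by astrocytes. Brains were stripped of meninges, digested and grown in astrocyte medium, and microglia and oligodendrocyte lineage cells were shaken off before the astrocytes were collected. The repeats are labelled biological, and the sources used here do not state whether a repeat was 1 brain or a pool. Mice of both sexes were used in the study, with no sex given for single libraries.

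RACK7, encoded by Zmynd8, is a chromatin reader that recognises modified histone H3 and works with histone demethylases and the NuRD complex at promoters and enhancers. Astrocytes clear glutamate and potassium from the synapse, share ions through gap junctions, and secrete extracellular matrix and factors that organise synapses. Cultures of neonatal brain also carry other cells, of which microglia, border macrophages and the fibroblasts of the meninges and vessels are the usual companions. Levels below are counts scaled to library size (CPM), the 2 WT values always stand before the 2 values of the libraries labelled cKO, and each difference is a log2 fold change, labelled cKO minus WT, with its standard error (n = 2 against 2). A gene was said to rise or fall where edgeR's quasi-likelihood test gave a Benjamini-Hochberg adjusted p below 0.05 and the fold change was at least 1.5.

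The 4 P8 libraries held 60276423 to 89183250 counts, and replicate libraries had rank correlations of 0.991 to 0.993 across genes. Zmynd8 stood at 99.98 and 104 against 160.4 and 171 CPM, 0.70 ± 0.047, adjusted p = 3.8e-06, so that both libraries labelled cKO stood above both WT libraries. Counts over the whole gene do not check the loss of the floxed exons, so those libraries are called labelled cKO throughout. Ddx3y, which is Y-linked, was between 125 and 174 CPM in all 4. The summed level of 5 sex-chromosome genes, a list added later, was 344 and 321 against 290 and 295 CPM at P8. At P6 it was 1436 and 1266 against 825 and 1036 CPM, so the days differed in these genes. The part of this in differences between days was not tested. Of 17938 genes tested, 2012 rose (11.2%) and 1502 fell (8.37%), and those shares are the background for each list below (12.7% and 9.71% with the p left unadjusted). The median difference over all genes was 0.012 on the log2 scale, and 419 genes rose and 324 fell by over 4-fold. The P8 groups did not overlap in 12694 of the genes tested (70.8%), among them 2011 that rose and all 1502 that fell. Lack of overlap therefore adds little to a call. At P6 the shares were 7.16% and 6.38%, and at P1 they were 4.01% and 0.892%.

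**Figure D1:**
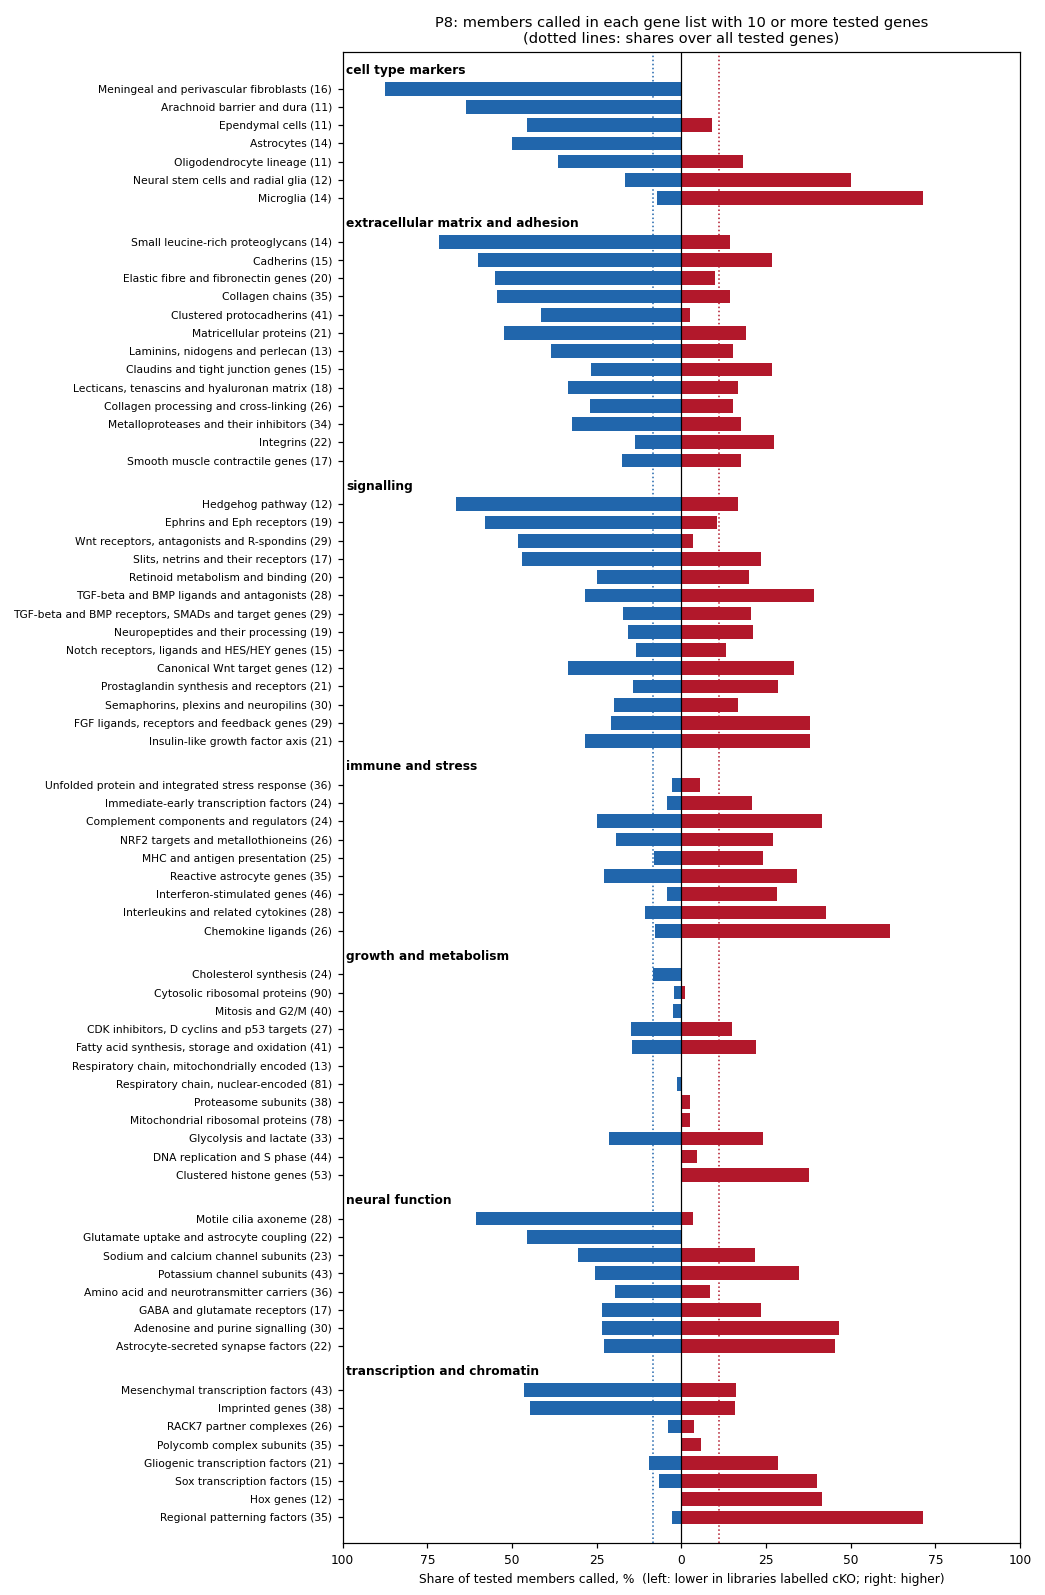
Bars give, for each gene list with 10 or more tested genes (number in brackets), the percent of tested members that fell (left, blue) or rose (right, red) in the P8 libraries labelled cKO against WT, and dotted lines give the shares over all tested genes (8.37% and 11.2%). Fibroblast markers reach 14 of 16 on the left, and regional patterning factors 25 of 35 on the right.

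Markers of fibroblasts fell together. Of 16 tested markers of meningeal and perivascular fibroblasts, 14 fell and 0 rose, with a median difference of -2.26 on the log2 scale. Decorin (Dcn), a small proteoglycan that coats collagen fibrils, was 1412 and 1479.9 against 45.7 and 44.7 CPM, a difference of -5.000 ± 0.17 with adjusted p = 5.4e-08. Lumican (Lum), of the same family, was 126 and 131 against 3.63 and 3.91 CPM (-5.09 ± 0.24). In both genes every WT library stood far above every library labelled cKO. Col1a1 and Col1a2, the chains of type I collagen and the most abundant of the markers, fell less, by 1.30 ± 0.045 and 1.63 ± 0.034 on the log2 scale. The summed level of the marker list was 34510.1 and 32483 against 8674 and 8917 CPM. Of 11 markers of the arachnoid barrier and dura, 7 fell and 0 rose. Penk, which encodes the enkephalin precursor, went from 289 and 318 to 0.396 and 0.487 CPM (-9.41 ± 0.24), and the claudin gene Cldn11 was 36.6 and 38.6 against 0.109 and 0 CPM. In RNA from a whole culture, fewer cells of a type and less RNA per cell cannot be told apart.

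The direction of the fibroblast markers depended on the day. At P6, 14 of 16 were again lower in the libraries labelled cKO (median -2.43), whereas at P1 10 were higher and 0 lower (median 1.77). Summed levels in the 2 WT libraries were 791 and 808 CPM at P1 and 8641 and 8686 CPM at P6, against 3135 and 3097 CPM and 2927 and 2747 CPM in the libraries labelled cKO. The list thus rose with age in WT cultures and stood highest in WT at P8. P6 and P8 are separate cultures with separate control libraries.

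**Figure D2:**
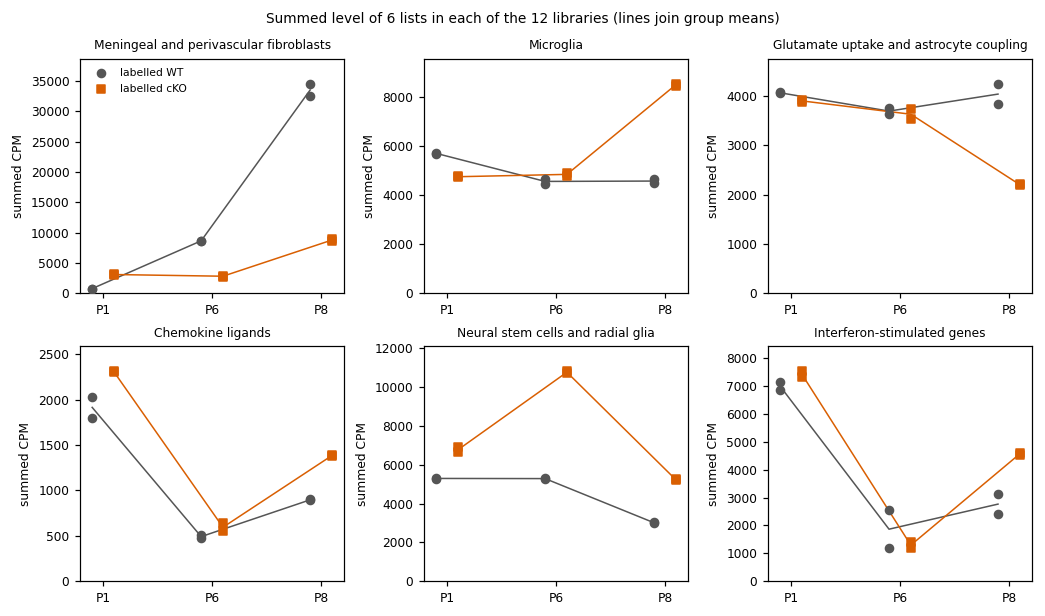
Points give the summed CPM of 6 lists in each of the 12 libraries at P1, P6 and P8, grey circles for WT and orange squares for labelled cKO, and lines join the means of 2 libraries. The microglial list stands at 8547 and 8474 CPM in the P8 libraries labelled cKO against 4669 and 4497 CPM in WT, and the fibroblast list is highest in P8 WT.

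Astrocyte markers were lower and microglial markers higher at P8. Of 14 astrocyte markers 7 fell and 0 rose (median -0.98). Gja1, which encodes the gap junction protein connexin 43, was 359.7 and 712 against 113 and 120.4 CPM, -2.20 ± 0.34, adjusted p = 8.0e-04; the WT libraries differed from each other here, and both stood above the other group. Glul, glutamine synthetase, was 344 and 353 against 269 and 287 CPM and stayed under the fold threshold. Sox9, the transcription factor that marks the lineage, was 63.2 and 71.03 against 49.5 and 47.2 CPM and was not called either. Of 14 microglial markers 10 rose and 1 fell, and their summed level was 4669 and 4497 against 8547 and 8474 CPM. Cd68, a lysosomal membrane protein of phagocytes, was 255 and 257 against 678 and 700.3 CPM (1.43 ± 0.034). C1qa, which starts the classical complement cascade, was 609 and 571 against 1403 and 1419.8 CPM (1.26 ± 0.052). The exception was Tmem119, a marker of homeostatic microglia, at 61.8 and 57.7 against 24.3 and 21.5 CPM (-1.38 ± 0.078), and Fcrls, another homeostatic marker, was not called, at 974 and 974 against 952 and 934 CPM (-0.046 ± 0.031). At P6 0 of the microglial markers rose and 1 fell, with a summed level of 4475 and 4661 against 4920.2 and 4790.4 CPM, and at P1 0 rose and 2 fell. The difference in effect was tested gene by gene only for the genes given at the end.

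Genes of neural stem cells and radial glia moved both ways, with 6 of 12 higher and 2 lower. Tnc, an extracellular glycoprotein of germinal zones, was 514 and 538 against 2153 and 2179.8 CPM (2.04 ± 0.044). Nes, the intermediate filament nestin, was 152 and 142 against 494 and 504 CPM (1.76 ± 0.042), and Vim, vimentin, rose with it to 2135 and 2143 CPM. Egfr, the epidermal growth factor receptor of activated stem cells, was 903 and 930.3 against 109 and 109.7 CPM (-3.07 ± 0.059, adjusted p = 2.5e-09). The 3 filament and matrix genes and Egfr therefore moved in opposite directions. Each was without overlap between the groups, which held for 70.8% of all genes tested, 99.95% of those that rose and 100% of those that fell. Endothelial markers gave 3 rises and 3 falls of 8, and oligodendrocyte lineage markers 2 rises and 4 falls of 11. The latter count of falls was 2 without WT replicate 2 or without labelled cKO replicate 2.

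Most lists of extracellular matrix genes held more falls than rises. Of 35 collagen chains 19 fell and 5 rose (median -0.73), and the chains added up to 39312 and 39140.3 against 14933 and 15263 CPM. Col8a2, a short-chain collagen of basement membranes, was 163 and 159.6 against 9.62 and 7.24 CPM (-4.26 ± 0.19), and Col6a2, a chain of the beaded filaments around cells, was 995 and 1019.8 against 102 and 105 CPM (-3.28 ± 0.058). A few chains went the other way: Col7a1, which makes anchoring fibrils, was 18.8 and 18.5 against 58.9 and 60.3 CPM (1.67 ± 0.14), and Col4a3, of specialised basement membranes, was low in every library at 0.572 and 0.402 against 1.77 and 1.51 CPM (1.76 ± 0.17). Of the enzymes that process collagen, Adamts2, which trims the amino-terminal propeptide, was 156 and 153 against 28.3 and 29.1 CPM (-2.43 ± 0.13). Lox, which cross-links fibres, was 2277 and 2315 against 1606 and 1617 CPM and stayed under the fold threshold.

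Small leucine-rich proteoglycans gave 10 falls and 2 rises of 14. Epyc (epiphycan) was 307 and 312 against 0.750 and 0.476 CPM, the widest gap of the list at -8.99 ± 0.22. Aspn (asporin) was 95.5 and 97.1 against 2.62 and 2.63 CPM (-5.20 ± 0.22). Prelp, which ties basement membrane to matrix, went up from 131 and 133 to 511 and 525 CPM (1.97 ± 0.049), and the abundant Bgn, biglycan, was 2669.6 and 2758 against 2042 and 2058 CPM and was not called. Elastic fibre genes gave 11 falls and 2 rises of 20. Fbln1 (fibulin) was 498 and 495 against 65.7 and 65.3 CPM (-2.92 ± 0.092) and Fbn2 (fibrillin) 537 and 521 against 71.8 and 73.04 CPM (-2.87 ± 0.089), while Ltbp1, which holds latent TGF-beta in the matrix, was 20.4 and 20.9 against 127 and 136 CPM (2.67 ± 0.058). Fn1, fibronectin, was not called, at 8425 and 8539 against 8868 and 9079 CPM (0.081 ± 0.077).

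Matricellular proteins, which sit in the matrix and signal to cells, gave 11 falls and 4 rises of 21. Smoc1 was 399 and 409.6 against 26.7 and 26.95 CPM (-3.91 ± 0.11) and Nov, of the CCN family, 497 and 515 against 34.4 and 37.9 CPM (-3.81 ± 0.092). Spp1, osteopontin, was 2536 and 2613 against 8368 and 8039.7 CPM (1.67 ± 0.035, adjusted p = 3.8e-09), and Ctgf, another CCN gene, 462 and 458 against 929 and 936 CPM (1.02 ± 0.042). Lecticans, tenascins and hyaluronan matrix, the matrix of the brain itself, gave 6 falls and 3 rises of 18, and their summed level was 1661 and 1720.3 against 3041 and 3078 CPM, with Tnc, given above, among the rises. Bcan, brevican, was 6.83 and 4.54 against 1.53 and 1.97 CPM (-1.69 ± 0.23), and the related Vcan, versican, 539 and 575 against 226 and 222 CPM (-1.31 ± 0.10). Fibroblast markers were lower beside these falls (14 of 16 fell, summed level 34510.1 and 32483 against 8674 and 8917 CPM). The deposited counts hold 16 of the 20 markers listed, none of them at 0 in either group. Their part in the result was not tested. The marker list is not independent, since it holds Col1a1, Col1a2, Col3a1, Col6a1, Col6a2, Dcn and Lum, which are collagen and proteoglycan genes. The summed matricellular list was 15960 and 16112 against 16718 and 16369 CPM, of which Spp1 was 2536 and 2613 against 8368 and 8039.7 CPM. The lectican sum was higher in the libraries labelled cKO and included Tnc, which rose. Both sums thus lean on 1 abundant member that rose, and whether they follow the fibroblast markers was not tested. At P6, where the fibroblast markers were also low, collagens gave 15 falls and 10 rises of 35 and the proteoglycans 6 falls and 2 rises of 14.

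Basement membrane and protease genes were mixed. Of 13 laminin, nidogen and perlecan genes 5 fell and 2 rose. Lama5, a laminin chain of mature basement membranes, was 33.6 and 35.8 against 95.1 and 93.02 CPM (1.44 ± 0.050), whereas Lama4, a chain of vessels, was 308 and 310.3 against 112 and 109 CPM (-1.48 ± 0.11). Itga3, the integrin subunit that binds laminins, was 24.8 and 27.2 against 139.8 and 139 CPM (2.42 ± 0.057), and Itgb2, the integrin subunit of leukocytes, was 169 and 163 against 425 and 429.9 CPM (1.37 ± 0.049). Among 34 metalloproteases and inhibitors 11 fell and 6 rose. Mmp12, the macrophage elastase, was 4.20 and 6.57 against 149 and 174 CPM (4.90 ± 0.24). Adamts15, which cleaves versican and its relatives, was 29.5 and 31.01 against 5.02 and 4.81 CPM (-2.62 ± 0.22).

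Cadherins, the calcium-dependent adhesion proteins, exchanged members. Of 15 tested 9 fell and 4 rose. Cdh11, a mesenchymal cadherin and the most abundant in WT, was 1589.6 and 1628 against 281 and 296 CPM (-2.48 ± 0.066). Cdh5, the cadherin of vessels, was 125 and 141 against 10.1 and 9.59 CPM (-3.76 ± 0.18). In the opposite direction Cdh2, N-cadherin of neural cells, was 117 and 120.4 against 398 and 392 CPM (1.74 ± 0.031, adjusted p = 2.0e-09), and Cdh4, retinal cadherin, 6.84 and 7.34 against 23.7 and 25.1 CPM (1.78 ± 0.093). In all 4 genes the groups stood apart, as they did in 70.8% of all genes tested, 99.95% of those that rose and 100% of those that fell. Clustered protocadherins, whose combinations give cells a surface identity, fell in 17 of 41 and rose in 1. The count of falls was 11 without labelled cKO replicate 1 and 10 without labelled cKO replicate 2. Pcdhb16 was 11.4 and 9.14 against 2.71 and 2.87 CPM (-1.88 ± 0.18) and Pcdhb9 was 3.82 and 3.98 against 0.450 and 0.868 CPM (-2.56 ± 0.37). Their exons are alike and in the gamma cluster shared, so single members are uncertain.

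Hedgehog genes split by role. The ligand gene Shh was 7.11 and 9.93 against 76.6 and 73.9 CPM (3.14 ± 0.13, adjusted p = 2.0e-07), and the ligand gene Dhh was 0.774 and 0.956 against 3.90 and 3.90 CPM (2.17 ± 0.43). Of the remaining 10 members, which are receptors, co-receptors, transducers and targets, 8 fell and 0 rose. The target gene Gli1, a transcription factor that reads out the pathway, was 30.4 and 34.6 against 5.59 and 5.34 CPM (-2.57 ± 0.23), and Ptch1, at once receptor and target, was 147 and 151 against 66.1 and 65.8 CPM (-1.17 ± 0.069). Cdon, a co-receptor, was 208 and 221 against 65.1 and 54.9 CPM (-1.84 ± 0.10). Ligands were higher and targets lower. The groups did not overlap in any of the 5 genes, as in 70.8% of all genes tested. That share was 99.95% of genes that rose and 100% of those that fell, so it adds nothing to the calls.

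Receptors and secreted regulators of Wnt signalling gave 14 falls and 1 rise of 29 (median -0.78). Sfrp4, a secreted decoy for Wnt, was 56.3 and 59.1 against 3.23 and 3.30 CPM (-4.14 ± 0.14), and Rspo2, an R-spondin that strengthens the signal, was 45.98 and 49.05 against 5.13 and 5.48 CPM (-3.16 ± 0.36). Lrp6, the co-receptor, was 409.6 and 423 against 213 and 206 CPM (-0.99 ± 0.075). An antagonist and an enhancer of the pathway thus both fell, and the antagonist Sfrp1 was not called, at 241 and 237 against 242 and 246 CPM. Among 12 target genes of the canonical pathway 4 rose and 4 fell. Ccnd1, cyclin D1, was 629 and 636 against 1848 and 1823 CPM (1.54 ± 0.028), while Nkd1, a feedback inhibitor, was 12.4 and 11.5 against 3.59 and 2.58 CPM (-1.96 ± 0.28).

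Guidance genes moved both ways. Of 19 ephrins and Eph receptors 11 fell and 2 rose. Epha3 was 153 and 153 against 8.50 and 6.92 CPM (-4.31 ± 0.35), Epha5 was 20.1 and 22.1 against 4.76 and 3.67 CPM (-2.32 ± 0.22) and the ligand gene Efnb3 was 12.7 and 12.9 against 1.06 and 0.796 CPM (-3.79 ± 0.33). Of 17 slits, netrins and their receptors 8 fell and 4 rose. Slit3, a repulsive ligand, was 423 and 421 against 133 and 133 CPM (-1.67 ± 0.067), and Robo2, a slit receptor, 90.1 and 98.4 against 15.6 and 14.8 CPM (-2.64 ± 0.12). Ntn1, netrin, was 39.97 and 36.6 against 182 and 185 CPM (2.26 ± 0.056), and Unc5b, a netrin receptor, 14.1 and 12.8 against 72.1 and 75.9 CPM (2.46 ± 0.15). Slit1, another slit, was 1.73 and 2.35 against 4.60 and 5.43 CPM (1.29 ± 0.22) and Ntn5, another netrin, 1.88 and 4.20 against 0.123 and 0.297 CPM (-3.83 ± 0.65, or -3.14 without WT replicate 2, or -4.61 without labelled cKO replicate 2), so slits and netrins each had a member that rose and a member that fell. Semaphorins and plexins gave 5 rises and 6 falls of 30, with Sema7a at 5.33 and 6.09 against 27.1 and 26.3 CPM (2.22 ± 0.087) and Plxna2 at 350.3 and 360.2 against 102 and 99.8 CPM (-1.81 ± 0.061).

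Growth factor ligands exchanged members. Of 28 TGF-beta and BMP ligands and antagonists 11 rose and 8 fell. Grem1, a secreted BMP antagonist, was 0.673 and 0.429 against 23.8 and 22.5 CPM (5.40 ± 0.21) and Gdf6, a BMP family ligand, 0.168 and 0.416 against 10.4 and 9.63 CPM (5.05 ± 0.29, or 5.88 without WT replicate 2). Gdf10, another ligand of the superfamily, was 65.7 and 71.6 against 2.28 and 2.51 CPM (-4.84 ± 0.12), and Bmp4 was 74.1 and 70.2 against 31.3 and 31.97 CPM (-1.19 ± 0.089). Smad9, a BMP-responsive SMAD, was 22.01 and 26.3 against 6.21 and 5.86 CPM (-2.002 ± 0.15).

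FGF genes gave 11 rises and 6 falls of 29. Fgf10 was 0.605 and 0.609 against 9.25 and 9.46 CPM (3.94 ± 0.57) and Fgf7, which binds the same receptor isoform, was 182 and 188 against 50.05 and 48.2 CPM (-1.91 ± 0.27). Etv1, a transcription factor induced by FGF, was 21.00 and 21.8 against 55.98 and 59.4 CPM (1.43 ± 0.083). Of 21 genes of the insulin-like growth factor axis 8 rose and 6 fell. Igf2, the ligand, was 5075 and 3058 against 46.8 and 41.2 CPM (-6.53 ± 0.83, adjusted p = 2.6e-04), and its neighbour H19, a noncoding RNA, was 826 and 883 against 48.1 and 45.8 CPM (-4.19 ± 0.17). Igf2bp1, which binds Igf2 mRNA, was 2.76 and 2.33 against 11.4 and 12.6 CPM (2.24 ± 0.15). Igf2 is also in the fibroblast marker list, and its exons overlap those of Igf2os. Among 20 retinoid genes 4 rose and 5 fell, the latter 3 without WT replicate 1 or without labelled cKO replicate 1. Crabp1, which binds retinoic acid in the cytoplasm, was 0.639 and 0.983 against 17.2 and 18.4 CPM (4.44 ± 0.24), and Rarb, a receptor and target of retinoic acid, was 21.1 and 21.7 against 2.54 and 1.58 CPM (-3.38 ± 0.22).

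Chemokine ligands rose as a family. Of 26 tested 16 rose and 2 fell (median 1.70, against 0.012 over all genes). The promoters of Ccl9 and Cxcl10 are printed because 6 of the 16 chemokine genes matched to a promoter (37.5%), against 4.6% of all 9261 tested genes with one, hold GGGNNTTNCC, a pattern of the kind NF-kappa-B proteins bind. The sequences are the 250 bases before the RefSeq start in GRCm38.p6, on the gene's strand, at chr11:83578637-83578886 (minus strand) and chr5:92348890-92349139 (minus strand), with matches on either strand in capitals.
Ccl9: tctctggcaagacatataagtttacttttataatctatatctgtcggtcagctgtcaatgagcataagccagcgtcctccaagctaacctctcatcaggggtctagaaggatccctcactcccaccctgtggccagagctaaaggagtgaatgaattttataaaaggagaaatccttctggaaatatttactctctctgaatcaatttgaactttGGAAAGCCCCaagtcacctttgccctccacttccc
Cxcl10: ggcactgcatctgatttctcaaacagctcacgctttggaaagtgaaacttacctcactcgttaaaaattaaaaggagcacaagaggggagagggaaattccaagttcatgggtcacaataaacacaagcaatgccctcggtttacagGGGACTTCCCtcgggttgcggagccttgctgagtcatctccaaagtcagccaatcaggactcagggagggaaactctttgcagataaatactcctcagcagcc
A match describes the letters only. The pattern was in 4.87% of the promoters of genes that rose and 5.21% of those of genes that fell. The chemokine share counts members whatever their call.

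Ccl9 itself was 59.1 and 58.4 against 223 and 221 CPM (1.92 ± 0.038, adjusted p = 3.0e-09), and Cxcl10, an attractant of T cells induced by interferon, was 5.53 and 4.65 against 13.9 and 15.7 CPM (1.54 ± 0.14). Ccl6 was 31.1 and 34.8 against 231 and 232 CPM (2.81 ± 0.060) and Ccl2, which draws monocytes, 17.2 and 15.2 against 98.4 and 109.5 CPM (2.68 ± 0.12). Each stood higher in both libraries labelled cKO than in either WT library. No overlap was found in 70.8% of all genes tested and 99.95% of those that rose. Cxcl12, a homeostatic chemokine made by meningeal and stromal cells and by astrocytes, was 428 and 443 against 47.7 and 47.3 CPM (-3.20 ± 0.36), against the direction of the family. At P6 the family gave 3 rises and 2 falls. Of 28 interleukins and related cytokines 12 rose and 3 fell. Tnf was 6.96 and 6.15 against 31.8 and 32.9 CPM (2.30 ± 0.10), and Csf1, the growth factor of macrophages, was 274 and 273 against 565 and 584 CPM (1.07 ± 0.040). Il33, an alarmin, was 180.1 and 175 against 71.5 and 80.01 CPM (-1.23 ± 0.12). The microglial list moved with these genes (10 of 14 rose, summed level 4669 and 4497 against 8547 and 8474 CPM), and its part in the result was not tested. The deposited counts hold 14 of its 15 markers, none of them at 0 in either group.

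Complement genes moved both ways, with 10 rises and 6 falls of 24. C1qc was 544 and 507 against 1252 and 1247 CPM (1.25 ± 0.044), and Cfp, properdin, was 57.5 and 56.4 against 239 and 252 CPM (2.11 ± 0.060). The proteases that complete the first component fell, with C1ra at 125 and 122 against 37.05 and 38.2 CPM (-1.71 ± 0.063) and C1s1 at 135 and 136 against 41.8 and 41.8 CPM (-1.70 ± 0.070), as did its inhibitor Serping1 at 163 and 165 against 58.7 and 55.7 CPM (-1.52 ± 0.064). The recognition chains and the proteases of 1 complex thus moved in opposite directions. C1qa and C1qc are also in the microglial marker list, of which 10 of 14 rose, while 14 of 16 fibroblast markers fell. The part of either cell type in this result was not tested. MHC genes gave 6 rises and 2 falls of 25, and H2-K1 was 434 and 409.5 against 760.0 and 725 CPM (0.82 ± 0.048) and B2m, its light chain, 1594 and 1623 against 2576 and 2597 CPM (0.69 ± 0.067), while the class II gene H2-Eb1 was 3.28 and 3.82 against 0.873 and 0.333 CPM (-2.56 ± 0.48, or -3.41 without labelled cKO replicate 1).

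Interferon-stimulated genes gave 13 rises and 2 falls of 46, and this count was the least stable of the lists. It was 27 without either P6 WT library, 7 without P8 WT replicate 2 and 8 without P8 labelled cKO replicate 2. Promoters of Rsad2 (viperin, an antiviral enzyme) and Oas3 (which senses double-stranded RNA) are printed with GAAANNGAAA, the core of the interferon-stimulated response element, in capitals on either strand. This pattern was in 15 of 27 promoters of the list (55.6%), whatever the call of the gene, and in 255 of all 9261 (2.75%). It was in 4.32% of the promoters of genes that rose and 2.90% of those of genes that fell. They lie at chr12:26456453-26456702 and chr5:120777660-120777909, both on the minus strand of GRCm38.p6.
Rsad2: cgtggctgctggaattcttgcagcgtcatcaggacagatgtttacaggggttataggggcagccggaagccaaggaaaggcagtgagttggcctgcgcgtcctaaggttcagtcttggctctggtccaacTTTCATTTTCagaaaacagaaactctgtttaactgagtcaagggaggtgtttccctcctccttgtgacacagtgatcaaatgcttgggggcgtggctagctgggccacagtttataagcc
Oas3: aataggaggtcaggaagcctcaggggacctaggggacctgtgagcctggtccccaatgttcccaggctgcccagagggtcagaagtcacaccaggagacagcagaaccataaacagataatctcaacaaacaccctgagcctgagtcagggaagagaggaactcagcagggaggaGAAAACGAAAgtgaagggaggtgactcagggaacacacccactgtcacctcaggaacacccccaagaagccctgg
Rsad2 was 16.2 and 10.6 against 51.2 and 55.2 CPM (1.99 ± 0.37) and Oas3 was 27.97 and 13.7 against 72.6 and 71.8 CPM (1.80 ± 0.40, or 2.40 without WT replicate 1). The WT libraries stood apart from each other in Oas3, yet both stayed under the libraries labelled cKO.

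Lysosomal and phagocytic genes rose widely, in lists that were added after the values had been seen. Of 46 lysosomal proteases, hydrolases and membrane proteins 20 rose and 1 fell, and their summed level was 23141 and 22528 against 43148 and 43495 CPM. Microglial markers moved with this list and with the pump and phagocyte lists that follow (10 of 14 rose, summed level 4669 and 4497 against 8547 and 8474 CPM). None of the 14 markers with deposited counts was at 0 in either group, and their part in the result was not tested. Ctsd, cathepsin D, was 5829 and 5581 against 12513 and 12542 CPM (1.13 ± 0.038), and Ctsb, cathepsin B, 3756 and 3684 against 8995 and 9001 CPM (1.27 ± 0.024). Ctsk, a collagen-degrading cathepsin, was the exception at 80.9 and 79.9 against 10.3 and 10.05 CPM (-2.98 ± 0.10). Of 20 subunits of the proton pump that acidifies lysosomes 6 rose and 1 fell. Atp6v0d2, a subunit of macrophages and osteoclasts, was 2.15 and 1.86 against 19.1 and 19.6 CPM (3.27 ± 0.23), whereas Atp6v1a, in the catalytic core of the pump, was 309.5 and 313 against 458 and 461 CPM and stayed under the fold threshold.

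Of 24 phagocyte and foam-cell genes 17 rose and 1 fell, and of 36 Toll-like, Fc and other phagocytic receptors 21 rose and 2 fell. Gpnmb, a glycoprotein of lipid-laden macrophages, was 853 and 851 against 2601 and 2825 CPM (1.67 ± 0.049), and Lyz2, lysozyme of myeloid cells, 4371 and 4315 against 8836 and 8847 CPM (1.03 ± 0.022). Clec7a, a receptor for fungal glucans, was 16.7 and 16.7 against 92.2 and 93.9 CPM (2.48 ± 0.068). Among 11 markers of border-associated macrophages, which line the meninges and vessels, 6 rose and 1 fell. Stab1, a scavenger receptor, was 394 and 396 against 1795 and 1766 CPM (2.17 ± 0.042) and Mrc1, the mannose receptor, 703 and 726 against 1339 and 1368 CPM (0.92 ± 0.056), but F13a1 was 101 and 108 against 19.9 and 19.2 CPM (-2.42 ± 0.17). The phagocyte list includes Lpl, lipoprotein lipase, at 99.1 and 108 against 730.4 and 741 CPM (2.83 ± 0.060) and Fabp4, a fatty acid carrier, at 7.23 and 7.05 against 54.1 and 51.2 CPM (2.88 ± 0.36). Both are also in the list of fatty acid synthesis, storage and oxidation, which gave 9 rises and 6 falls of 41 (median 0.017). Hmox1, which degrades haem, was 327 and 312 against 1153 and 1172 CPM (1.86 ± 0.062).

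**Figure D3:**
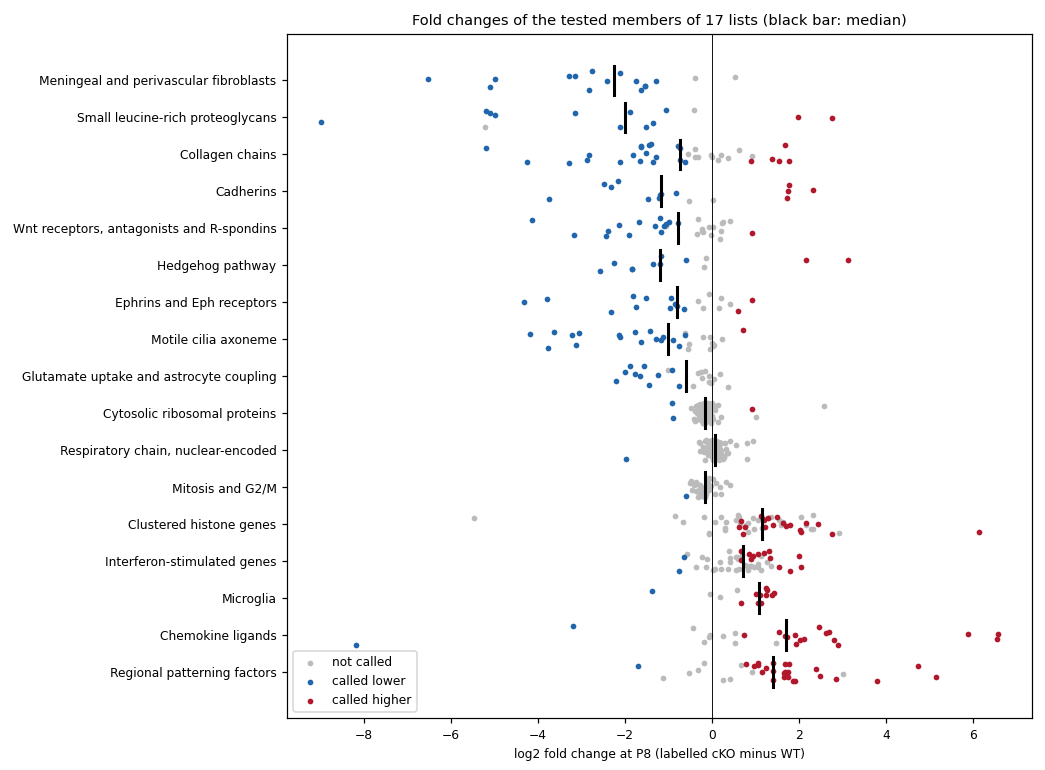
Each point is the log2 fold change (labelled cKO minus WT, P8) of 1 tested gene in 17 lists, blue where it fell, red where it rose, grey where it was not called, and the black bar is the median of the list. Cytosolic ribosomal, respiratory chain and mitosis genes lie near 0, with medians of -0.16, 0.066 and -0.16, while fibroblast markers have a median of -2.26 and chemokine ligands of 1.70.

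Few genes of the housekeeping systems were called. Cytosolic ribosomal proteins gave 1 rise and 2 falls of 90, mitochondrial ribosomal proteins 2 rises of 78, the nuclear-encoded respiratory chain 1 fall of 81, its mitochondrially encoded part 0 of 13, and the proteasome 1 rise of 38. All of these shares lay under the background of 11.2% and 8.37%. Cell cycle genes were similar, with 2 rises of 44 in DNA replication and 1 fall of 40 in mitosis, and Mki67, the proliferation antigen, was 155 and 162 against 149 and 153 CPM. Whether called or not, 77 cytosolic ribosomal genes had a negative difference and 13 a positive one (median -0.16). For mitosis genes these were 33 and 7 (median -0.16). Other lists leaned to positive differences, with 32 positive and 12 negative in DNA replication (median 0.19) and 58 and 20 in mitochondrial ribosomal proteins (median 0.10). The nuclear-encoded respiratory chain had 53 and 28 (median 0.066) and the proteasome 30 and 8 (median 0.10). The rises in DNA replication were 4 without WT replicate 2 and 1 without any one of the other P8 libraries. Clustered histone genes stood out from that, with 20 rises and 0 falls of 53. The count was 13 without WT replicate 1 and 10 without WT replicate 2. Hist1h1d, a linker histone, was 2.34 and 1.54 against 6.52 and 6.97 CPM (1.80 ± 0.24), and Hist1h2bc was 63.9 and 62.3 against 104 and 103 CPM (0.71 ± 0.056). Histone genes are nearly identical to one another, so the split of reads among them is uncertain.

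Genes of energy and lipid metabolism moved both ways. Of 33 glycolysis and lactate genes 8 rose and 7 fell. Slc2a1, the glucose transporter, was 39.5 and 39.4 against 76.9 and 82.2 CPM (1.01 ± 0.071) and Pkm, pyruvate kinase, 841 and 826 against 1443 and 1395 CPM (0.77 ± 0.043). Slc16a1, a lactate transporter, was 137 and 141 against 38.7 and 43.1 CPM (-1.77 ± 0.076), and Aldoc, the aldolase of astrocytes, 40.2 and 38.2 against 16.5 and 15.3 CPM (-1.30 ± 0.10). The muscle-type aldolase gene Aldoa rose by 0.70 ± 0.051 on the log2 scale, so the isoforms moved apart. Cholesterol synthesis gave 2 falls and 0 rises of 24 (8.33%, against the background of 8.37%), among them Hmgcs1, an early enzyme, at 248 and 249 against 126 and 137 CPM (-0.91 ± 0.067). Whether called or not, 20 of its genes had a negative difference and 4 a positive one (median -0.26). Scd1 and Scd2, the fatty acid desaturases, fell by 1.06 ± 0.061 and 0.85 ± 0.042 on the log2 scale. In the stress lists, Slc7a11, the cystine transporter that feeds glutathione, was 495 and 498 against 74.7 and 83.7 CPM (-2.65 ± 0.084), and Atf3, a stress-induced transcription factor, was 14.6 and 15.96 against 55.4 and 59.2 CPM (1.91 ± 0.10), but the unfolded protein list gave 2 rises and 1 fall of 36.

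Of 22 genes of glutamate uptake and astrocyte coupling 10 fell, 12 were not called and 0 rose. Aqp4, the water channel of astrocyte endfeet, was 443 and 451 against 113 and 109 CPM (-2.01 ± 0.073, adjusted p = 7.9e-08). Slc38a2, a glutamine transporter, was 668 and 709 against 189 and 185 CPM (-1.88 ± 0.048). Kcnj10, the channel that clears potassium, was 114 and 110.1 against 37.2 and 33.8 CPM (-1.66 ± 0.084). Groups did not overlap for any of the 3, nor for 70.8% of all genes tested and 100% of those that fell. Potassium channel subunits as a whole gave 15 rises and 11 falls of 43, the rises mostly from low levels, such as Kcnip1 at 0.336 and 0.499 against 5.36 and 5.55 CPM (3.69 ± 0.26). Of 30 genes of purine signalling 14 rose and 7 fell, and the rises were 9 without WT replicate 1, WT replicate 2 or labelled cKO replicate 2. P2rx3, an ATP-gated channel, was 0.572 and 0.222 against 9.97 and 10.7 CPM (4.72 ± 0.51, or 5.53 without WT replicate 1).

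Secreted factors that act on synapses and neurons gave 10 rises and 5 falls of 22. Thbs2, a thrombospondin that induces synapses, was 2717 and 2683 against 328 and 329.6 CPM (-3.04 ± 0.037, adjusted p = 5.4e-10), and Ptn, pleiotrophin, 308 and 319 against 38.8 and 36.97 CPM (-3.05 ± 0.076). Gdnf, a survival factor for neurons, was 2.71 and 2.96 against 10.5 and 11.6 CPM (1.96 ± 0.13), and Nrg1, neuregulin, 15.6 and 14.4 against 52.9 and 53.3 CPM (1.83 ± 0.070). Of 28 axoneme genes of motile cilia 17 fell and 1 rose. Dnah6, a dynein heavy chain, was 4.36 and 4.53 against 0.368 and 0.571 CPM (-3.23 ± 0.28), while Foxj1, the master regulator of motile cilia, was 24.1 and 25.5 against 42.4 and 39.2 CPM (0.72 ± 0.086). The levels of the axoneme genes were low throughout, and their sum was 182 and 188 against 139 and 137 CPM. Ependymal markers gave 5 falls and 1 rise of 11, and the falls were 3 without WT replicate 2. Their summed level was not lower, at 52.97 and 55.39 against 61.51 and 57.92 CPM.

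Transcription factors of regional patterning rose in 25 of 35 and fell in 1 (median 1.41). These genes give progenitors their position along the neural tube and are textbook targets of Polycomb repression, whose part here was not tested. The Irx2 promoter is printed beside that of Col3a1, a fibroblast gene, with CpG in capitals, as a pair picked after their values were seen. Irx2 lies at chr13:72628570-72628819 and Col3a1 at chr1:45311288-45311537, both on the plus strand of GRCm38.p6.
Irx2: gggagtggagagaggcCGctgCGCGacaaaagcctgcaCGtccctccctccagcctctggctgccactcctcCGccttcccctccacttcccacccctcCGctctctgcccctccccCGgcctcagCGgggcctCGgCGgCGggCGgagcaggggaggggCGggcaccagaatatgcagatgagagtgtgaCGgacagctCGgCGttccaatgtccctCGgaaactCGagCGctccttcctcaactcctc
Col3a1: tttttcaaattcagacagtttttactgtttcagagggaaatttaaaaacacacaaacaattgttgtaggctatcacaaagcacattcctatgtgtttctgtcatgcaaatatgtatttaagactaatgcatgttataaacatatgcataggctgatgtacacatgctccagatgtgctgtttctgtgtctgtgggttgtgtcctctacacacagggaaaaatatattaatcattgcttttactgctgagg
The Irx2 window held 19 CpG and that of Col3a1 0. Over the 21 patterning promoters matched the median was 16 CpG, against 15 over all 9261, 10 over those of genes that rose and 13 over those of genes that fell. The median ratio of observed CpG to that expected from C and G content was 0.6765 for the patterning list and 0.7172 over all. The printed pair therefore does not represent the list, nor the genes that rose and fell.

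Irx2 was 3.20 and 3.46 against 17.6 and 17.6 CPM (2.40 ± 0.17) and Col3a1 was 4915 and 4966 against 1118 and 1170.0 CPM (-2.11 ± 0.060). Nkx2-1, a factor of the ventral forebrain, was 1.497 and 1.26 against 10.7 and 9.25 CPM (2.85 ± 0.29), Otx2, of fore- and midbrain, 1.60 and 1.37 against 8.23 and 8.36 CPM (2.48 ± 0.36) and Pax8, of the midbrain-hindbrain border, 0.185 and 0.291 against 8.13 and 9.21 CPM (5.16 ± 0.74). Each of the last 3 was under 2 CPM in both WT libraries and over 8 CPM in both libraries labelled cKO. The 1 that fell was Msx1, at 37.8 and 37.7 against 11.6 and 11.7 CPM (-1.69 ± 0.11), a factor also of mesenchyme. The list had 17 rises and 3 falls at P6 and 8 rises and 1 fall at P1. Hox genes gave 5 rises of 12, which was 3 without WT replicate 1, WT replicate 2 or labelled cKO replicate 2, and Hoxc4 was 0.135 and 0 against 3.51 and 3.67 CPM. Sox genes gave 6 rises and 1 fall of 15, with Sox21 at 3.60 and 2.35 against 10.8 and 11.4 CPM (1.90 ± 0.17).

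Mesenchymal transcription factors gave 20 falls and 7 rises of 43. Foxd1, a factor of meningeal fibroblasts, was 191 and 179 against 26.9 and 27.5 CPM (-2.77 ± 0.20), and Tbx18, of mural and meningeal cells, 141 and 141 against 21.3 and 21.8 CPM (-2.71 ± 0.18). Few genes of the chromatin machinery were called. Polycomb subunits gave 2 rises of 35, which was 0 without WT replicate 2 or without labelled cKO replicate 1, and the partner complexes of RACK7 gave 1 rise, Zmynd8, and 1 fall of 26. The fall was Chd5, a remodeller of the NuRD family, at 10.5 and 10.6 against 3.48 and 3.63 CPM (-1.57 ± 0.18). Imprinted genes gave 17 falls and 6 rises of 38. Zim1, a zinc finger gene expressed from the maternal copy, was 56.8 and 82.03 against 1.64 and 1.18 CPM (-5.63 ± 0.30), and Mest, expressed from the paternal copy, was 11.03 and 12.2 against 156 and 148 CPM (3.70 ± 0.064). Paternally expressed Igf2 and maternally expressed H19, given above, both fell.

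Genes were also grouped by the letters of their symbols before the digits, which gave 257 families of 8 or more tested genes. At least 50% of the members rose in 9 families. These were Ccl (11 of 13), Ifi (10 of 18), Tnfrsf (8 of 15), Wnt (7 of 14), Tlr (5 of 9) and, with 4 of 8 each, Slfn, Epb, Gstm and Igf. Members of some of these also fell, with 3 in Tnfrsf, 3 in Wnt, 2 each in Gstm and Igf and 1 in Epb. At least 50% fell in 9 others, which were Col (19 of 36), Pcdhb (10 of 15), Cdh (9 of 15), Adamts (7 of 13), Dnah (6 of 9), Fzd (5 of 10), Entpd (5 of 8) and, with 4 of 8 each, Cacna and Igsf. Wnt ligands and their Frizzled receptors (Fzd) were thus named on opposite sides, although 3 Wnt genes fell. Of the families that fell, 5 Col, 4 Cdh and 2 Adamts genes rose, as did 1 each of Entpd, Cacna and Igsf. Of 66 families with 20 or more tested genes, 6 had no call, namely Dnajc, Gtf, Med, Mettl, Snord and Mir. Igf as a stem takes in receptors and binding proteins.

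Genes were also named from outside the lists chosen first, and some of these belong to the 6 lists added later. Marco, a scavenger receptor of macrophages that is in the added lists (ENSMUSG00000026390, chr1:120474538-120505024), was 4.25 and 4.36 against 96.1 and 106 CPM, a difference of 4.55 ± 0.089 with adjusted p = 2.7e-09. Folr2, a folate receptor of border macrophages and in that added list (chr7:101839988-101857194), was 5.13 and 7.11 against 75.4 and 80.99 CPM (3.67 ± 0.21). Adgrl4, an adhesion receptor of endothelium (chr3:151437887-151545086), was 0.572 and 0.748 against 42.5 and 41.4 CPM (5.98 ± 0.31), and Casq1, the calcium store protein of muscle (chr1:172209894-172219868), 8.14 and 8.93 against 122 and 117 CPM (3.81 ± 0.088). Coordinates are those of whole genes in mm10. Lurap1l was 5.16 and 4.46 against 45.7 and 48.7 CPM (3.30 ± 0.11) and the noncoding gene Gm2115 8.66 and 7.87 against 101 and 103 CPM (3.63 ± 0.100). Gm21982 was 0.841 and 0.332 against 13.2 and 26.95 CPM (5.11 ± 0.99, or 5.91 without WT replicate 1, or 4.50 without labelled cKO replicate 2), but its exons overlap those of Haus5 and Rbm42.

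Among the falls outside the lists chosen first, Egfl6, a secreted matrix protein (ENSMUSG00000000402, chrX:166523007-166585720), was 31.03 and 34.4 against 0 and 0 CPM, with 0 counts in both libraries labelled cKO, and was at least 1717-fold lower when those libraries were set to 3 counts in sum. Slc26a7, an anion exchanger, was 94.7 and 97.99 against 0.232 and 0.690 CPM (-7.68 ± 0.59, or -8.69 without labelled cKO replicate 2), and Slc4a10, a bicarbonate transporter, 365 and 382 against 2.80 and 2.60 CPM (-7.11 ± 0.23). Moxd1, a monooxygenase of crest-derived cells, was 848 and 846 against 20.7 and 20.96 CPM (-5.34 ± 0.27). All 4 stood over 30 CPM in both WT libraries, and the first 3 under 3 CPM in both libraries labelled cKO. The proteases Prss35, Prss12 and Enpep differed by -5.63 ± 0.26, -4.93 ± 0.24 and -5.12 ± 0.50 on the log2 scale, and Clec11a, a growth factor for bone marrow stroma, was 23.4 and 24.9 against 0.573 and 0.832 CPM (-5.09 ± 0.44). Among genes outside the lists chosen first the main losses in CPM were in Akap12, a kinase scaffold, at 2897 and 2952 against 1380.0 and 1370.0 CPM, Npr3, the clearance receptor for natriuretic peptides, at 1027 and 1024 against 209 and 186 CPM, and Sned1, a matrix protein, at 1056 and 1093 against 161 and 171 CPM. The main gains were in the cathepsins and Lyz2 above, which are in the added lists, in Tmsb4x, which binds actin monomers, at 1204 and 1214 against 3495 and 3509 CPM, and in Actb at 2029 and 2016 against 3823 and 4193 CPM.

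**Figure D4:**
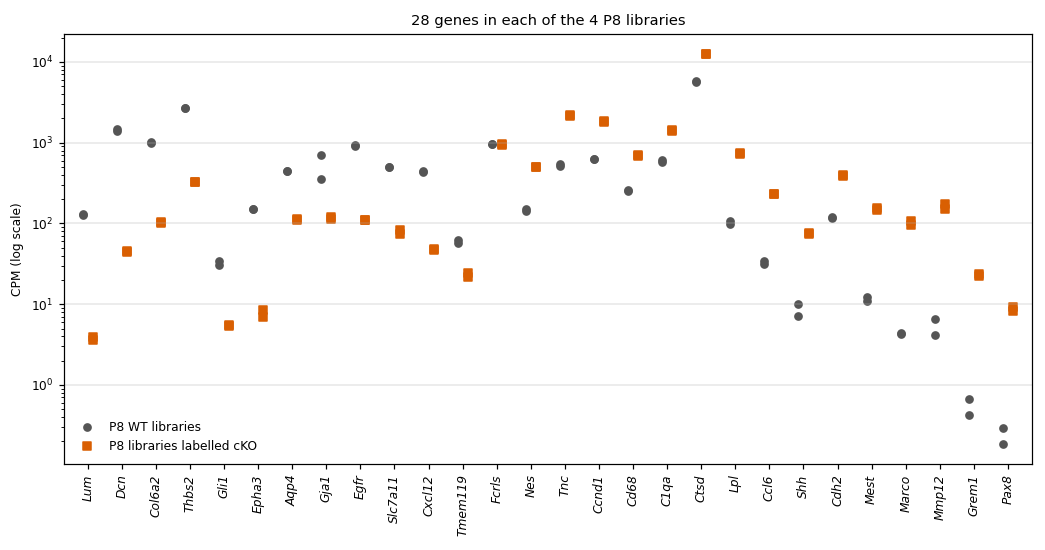
CPM on a log axis of 28 genes in each of the 4 P8 libraries, grey circles for the 2 WT libraries and orange squares for the 2 labelled cKO. In 27 of the 28 genes the difference was called, and Fcrls is the one with the groups close, at 974 and 974 against 952 and 934 CPM.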

How the data were processed

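mRNA of cultured mouse astrocytes was sequenced in 12 libraries (3 days, 2 labels, 2 repeats). Per the labels and methods, reads were mapped to mm10 with HISAT2, and the values deposited by the authors are raw counts per gene. No source read here names the counting program, its annotation or a strand setting, so genes with overlapping exons could not be told apart, among those named Aspn, Cacna1a, Casq1, Ccnd1, Col3a1, Cp, Ctgf, Ctsb, Ctsd, Cxcl10, Dhh, Edn1, Epyc, Fbn2, Folr2, Gli1, Glul, Gm21982, Igf2, Mest, Npr3, Nrg1, Ntn5, P2rx3, Pkm, Rarb, Shh, Sned1, Spp1, Stab1, Tbx18, Tnc. Counts were tested with edgeR 4.0.16 (quasi-likelihood, TMM, filterByExpr, R 4.3.3) in 1 model of all 12 libraries with a mean per group, and the contrast was labelled cKO minus WT at P8. Calls took a Benjamini-Hochberg adjusted p below 0.05 over all 17938 genes and a fold change of at least 1.5. Alternatives included DESeq2 1.42.0, another filter, another scaling, GC and length trends and each library left out. The fit was checked on simulated counts for the P8 comparison, where it recovered 94% of genes changed by 2 on the log2 scale and 67% of those changed by 1. Only 200 genes, all at a mean of at least 1 CPM, were changed there, far fewer than were called here. The fit called 9 unchanged genes, and DESeq2 on the 4 simulated P8 libraries called 89.

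The members and the 76 gene lists were chosen with earlier results of these data known, and 6 lists (lysosome, proton pump, macrophage, phagocyte, phagocytic receptor and sex-chromosome genes) were added after values were seen, so no list was tested as a set. Genes were named by rule: per list the 3 largest rises and falls without overlap of the groups (2 in lists under 15 tested) at a mean of at least 1 CPM, and the 2 most abundant members. Outside the lists chosen first these were the 8 largest rises and falls at a mean of at least 10 CPM and the 6 largest gains and losses in CPM. A few genes that the rule names are not reported here. Irx2 and Col3a1 were named for their promoters after their values were seen. Promoters come from RefSeq (GRCm38.p6), where 9261 tested genes matched a single start.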

Additional observations from a re-analysis of the deposited data

Results flagged for a closer look

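For genes outside the lists chosen first that changed most at P8 (some, such as Marco, Folr2 and Atp6v0d2, are in lists added later), the effect of the label was set against the effect at the other days in a single edgeR model, and these results are given because the difference between days itself passed at adjusted p below 0.05. Over all genes, 3849 of 17938 (21.5%) differed between the P8 and P6 effects and 4606 (25.7%) between the P8 and P1 effects. Each value is the P8 log2 fold change minus that of the other day, with its standard error, and each day has its own WT libraries. The genes were the 8 largest rises and the 8 largest falls at P8, and that choice favours a larger effect at P8 than at other days. Comparisons that did not pass are not printed.

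Among genes that rose at P8, the macrophage receptor gene Marco had an effect larger than at P6 by 5.15 ± 0.12 and than at P1 by 4.34 ± 0.11. For Folr2 the differences were 4.26 ± 0.27 and 2.99 ± 0.28, and for Atp6v0d2 they were 3.95 ± 0.32 and 2.88 ± 0.33. In the noncoding gene Gm2115 they were 3.99 ± 0.13 and 3.57 ± 0.13. Gm21982, which shares exons with Haus5 and Rbm42, gave 6.63 ± 1.41 and 5.47 ± 1.31. Lurap1l gave 1.30 ± 0.15 against P6 and 3.09 ± 0.15 against P1. Adgrl4 differed from P1 by 1.65 ± 0.46. Marco, Folr2, Gm2115 and Atp6v0d2 did not rise at P6, where their log2 fold changes were -0.60, -0.59, -0.36 and -0.68.

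Among genes that fell, Slc4a10 differed from P6 by -3.06 ± 0.28 and from P1 by -7.56 ± 0.32, and Prss35 by -3.61 ± 0.32 and -6.74 ± 0.37. Clec11a, a growth factor gene, gave -4.70 ± 0.57 and -4.47 ± 0.69, and Prss12 gave -1.32 ± 0.30 and -6.04 ± 0.35. Moxd1 fell less at P8 than at P6, by 3.07 ± 0.43, and differed from P1 by -5.56 ± 0.38. Slc26a7 differed from P1 by -9.11 ± 1.35 and Enpep by -6.90 ± 0.83. Egfl6 differed from P1 by -15.35 ± 2.59, a fitted value that depends on the prior count because the P8 libraries labelled cKO hold 0 counts.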

How the results depend on the processing

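With 2 libraries a group the spread is estimated from all 6 groups, and p-values measure only the spread between these libraries. Genes under about 1 CPM are limited by depth. Across 21 alternatives no named gene that was called changed direction. Of the 388 named genes called, 283 kept the call under every alternative and 60 lost it only where a fold change of at least 2 was asked, a setting under which 1102 genes rose and 925 fell. Leaving out 1 library at a time gave 1728 to 2037 genes that rose and 1273 to 1536 that fell, 2914 to 3773 that differed between the P8 and P6 effects and 3642 to 4727 between the P8 and P1 effects. DESeq2 on the 4 P8 libraries gave 2050 and 1765, and an unadjusted p 2276 (12.7%) and 1741 (9.71%). Of 95 list counts of 3 or more, 56 stayed within 1.5 times of the value given under every alternative, and the list counts that a left-out library moved further stand beside them above. Counts of 1 or 2 in a list are not stable: interferon-stimulated genes that fell, for one, were 2 in all and 0 at the lowest without a library. Removing trends with GC content and length gave 1870 and 1601.

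Replicate numbers are shared across groups, but deviations of same-numbered libraries from their group means did not correlate (r = -0.030 at P1, -0.0055 at P6 and -0.063 at P8, across genes). The fit with a replicate block gave 1846 genes that rose and 1383 that fell, and 2840 and 3650 that differed from P6 and P1. Interferon-stimulated genes that rose were 8 under the block and 28 at most in the other fits.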

Other observations

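Genes used to describe reactive astrocytes moved both ways at P8, with 12 rises and 8 falls of 35. Cd14, a receptor for bacterial lipid, was 36.9 and 39.5 against 118 and 113 CPM (1.60 ± 0.087), and Cp, ceruloplasmin, was 257 and 258 against 571 and 573 CPM (1.15 ± 0.052). Aspg was 7.57 and 5.87 against 1.06 and 0.796 CPM (-2.85 ± 0.30) and Tgm1, a transglutaminase, 7.08 and 9.17 against 1.61 and 2.01 CPM (-2.16 ± 0.27). Smooth muscle contractile genes gave 3 rises and 3 falls of 17. Myh11, the smooth muscle myosin, was 0.622 and 1.58 against 19.9 and 20.7 CPM (4.18 ± 0.35, or 5.02 without WT replicate 2) and Cnn1, calponin, 40.2 and 40.3 against 172 and 166 CPM (2.07 ± 0.094), while Mylk, the kinase of the myosin light chain, was 58.6 and 59.7 against 17.9 and 15.95 CPM (-1.81 ± 0.13). The abundant smooth muscle actin gene Acta2 was 1595 and 1581 against 2057 and 2036 CPM and stayed under the fold threshold. Prostaglandin genes gave 6 rises and 3 falls of 21. Ptgdr, a receptor for prostaglandin D2, was 48.6 and 52.8 against 0 and 0.166 CPM, and Tbxas1, thromboxane synthase of macrophages, was 38.9 and 41.00 against 118 and 118 CPM (1.56 ± 0.070).

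Voltage-gated sodium and calcium channel genes gave 5 rises and 7 falls of 23. Cacna1g, a low-threshold calcium channel, was 95.5 and 92.02 against 11.8 and 12.6 CPM (-2.94 ± 0.29), and Cacna1a, a presynaptic one, 24.3 and 25.5 against 67.4 and 67.4 CPM (1.44 ± 0.083). Notch genes gave 2 rises and 2 falls of 15, with the ligand gene Jag1 at 208 and 198 against 93.3 and 90.5 CPM (-1.14 ± 0.068) and Notch2, a receptor, not called at 189.8 and 200.5 against 208 and 206 CPM. Among neuropeptides and their processing genes, 4 of 19 rose and 3 fell, and Edn1, the vasoactive peptide endothelin, was 0.706 and 0.706 against 7.86 and 8.65 CPM (3.54 ± 0.22). By biotype, 83 of 561 lincRNA genes rose and 40 fell, 1767 of 14112 protein-coding genes rose and 1380 fell, and of 103 snoRNA genes 0 rose and 1 fell. Of 1448 processed pseudogenes 50 rose and 17 fell, and these share reads with their parent genes.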
